A study of Mus musculus with 8 samples.

Results

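The genes described here are 10 genes that write, copy, oxidize or oppose DNA methylation: Dnmt1, Uhrf1, Hells, Dnmt3a, Dnmt3b, Tet1, Tet2, Tet3, Dppa2 and Dppa4. They are 10 of the 53700 genes of the count table and were taken by symbol. They were picked because Dppa4 was higher and Hells lower in FIH-KO cells, so every comparison of genotype for these 10 genes is given as a description, without a p-value. Expression was measured by RNA-Seq of poly(A) RNA in Lewis lung carcinoma (LLC) cells, an established mouse tumor line. FIH, the product of Hif1an, is an oxygen-dependent asparagine hydroxylase that restrains the transcriptional activity of HIF. The FIH-KO cells were made from LLC cells with Cas9 and a guide against Hif1an, followed by single-cell dilution and selection of clones. How many clones gave these libraries is not stated in the sources used here. What sets a clone apart from the WT cells and the loss of FIH cannot be told apart. Both lines were kept for 16 hours in air with 21% O2, called normoxia, or with 1% O2, called hypoxia. This gave 4 groups of 2 libraries. The design text of the series names the WT hypoxia group in 2 places and leaves out FIH-KO hypoxia, and the titles and descriptions of the samples, which name all 4 groups, were followed. The sources used here do not say that the libraries of a group came from separate cultures, and p-values then measure only the spread between these libraries.

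A methyl group on the cytosine of a CpG is copied at the replication fork by DNMT1, which UHRF1 recruits to hemimethylated sites, while the helicase HELLS (also called LSH) opens nucleosomes for methylation of repeats. DNMT3A and DNMT3B write new methylation. The TET enzymes oxidize 5-methylcytosine and, as FIH does, need oxygen, iron and 2-oxoglutarate. DPPA2 and DPPA4 are small chromatin proteins that work as a pair in early embryos and embryonic stem cells, keep certain promoters free of methylation, and are usually silent in differentiated cells.

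The libraries held 14519731 to 18177016 counts each, and 13933 genes passed the filter on low counts and were tested. Of the 10 genes, 9 passed, and Dppa2 did not. Levels are given as CPM, the count of a gene divided by the size of its library as scaled by TMM. TMM is a normalization that scales each library on the assumption that most genes do not differ between libraries. A count of 3 corresponded to 0.168 to 0.205 CPM. Hif1an, the targeted gene, stood at 83.4 CPM ± 1.62 (SD, n = 2) in WT normoxia and at 36.2 ± 2.05 in FIH-KO normoxia, a log2 fold change of -1.20 (SE 0.12, edgeR adjusted p = 3.1e-05), and at -0.85 in hypoxia (SE 0.12, adjusted p = 0.00031). Its transcript remained detectable in the knockout groups, and a count per gene does not show a small deletion in the coding sequence. The keratins Krt8 and Krt18 were expressed in every group, with group means of 122 to 305 CPM, whereas 8 of 12 epithelial and lung markers, among them Epcam, Cdh1, Nkx2-1 and Sftpc, did not exceed 10 counts in any library. The summed level of these 12 markers was 326 to 352 CPM in WT and 437 to 539 CPM in FIH-KO normoxia, and 226 to 283 and 334 to 447 CPM in hypoxia. Of 10 markers of leukocytes, endothelium, fibroblasts and hepatocytes, 6 did not exceed 10 counts and 3 were at 0, and their summed level was 4.56 to 9.22 CPM over the 8 libraries. Replicates differed by more than counting error in every group, most in FIH-KO hypoxia, where the chi-square per degree of freedom over genes was 23.3 against 5.66 in WT normoxia.

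The starts of 3 of the genes are shown: Hells, which was lower in FIH-KO cells, and Tet2 and Tet3, which rose in hypoxia in both genotypes. Tet1 and Dnmt3a also rose in WT hypoxia, and their starts are not shown. Each sequence covers 270 bases before and 30 bases from the start of the canonical transcript in GRCm39, on the strand of the gene. For Hells, at chr19:38919089-38919388 on the plus strand, the capitals mark the only match to the E2F words TTTGGCGC, TTTGCCGC, TTTCGCGC and TTTCCCGC. For Tet2, at chr3:133250732-133251031 on the minus strand, and Tet3, at chr6:83433345-83433644 on the minus strand, they mark CACGTG, a palindrome that holds the core of the hypoxia response element, ACGTG, on both strands.
Hells: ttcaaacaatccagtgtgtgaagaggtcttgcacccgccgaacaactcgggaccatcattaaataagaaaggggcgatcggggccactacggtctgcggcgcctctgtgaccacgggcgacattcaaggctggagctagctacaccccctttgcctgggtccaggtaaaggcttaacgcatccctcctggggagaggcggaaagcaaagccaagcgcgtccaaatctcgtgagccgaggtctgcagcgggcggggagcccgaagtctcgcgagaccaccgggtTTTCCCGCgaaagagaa
Tet2: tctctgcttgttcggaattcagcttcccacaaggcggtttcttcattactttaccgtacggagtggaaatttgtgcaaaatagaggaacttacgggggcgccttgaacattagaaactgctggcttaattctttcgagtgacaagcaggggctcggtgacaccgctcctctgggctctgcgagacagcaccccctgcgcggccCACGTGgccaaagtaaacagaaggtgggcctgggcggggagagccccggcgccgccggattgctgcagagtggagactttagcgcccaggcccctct
Tet3: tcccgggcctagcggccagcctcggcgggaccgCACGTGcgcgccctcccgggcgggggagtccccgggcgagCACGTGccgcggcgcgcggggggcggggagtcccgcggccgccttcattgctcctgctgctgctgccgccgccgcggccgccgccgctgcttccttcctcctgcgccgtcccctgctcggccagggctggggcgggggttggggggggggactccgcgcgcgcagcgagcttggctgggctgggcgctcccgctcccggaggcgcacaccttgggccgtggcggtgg

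The starts of 9 of the 10 genes were read for CpG dinucleotides and motifs. The Dppa2 start held 5 CpGs in 300 bases. The median of all 21770 gene starts was 10 CpGs, and 31.2% of them held fewer than 5. The start of Hells was richer, with 24 CpGs, and those of Dnmt3a and Tet3 richer still, with 49 and 44. Tet2 and Dnmt3b each had 19, Uhrf1 10, Dnmt1 9 and Tet1 5. The core ACGTG or GCGTG was searched on both strands and was present in 46.9% of all gene starts and in 61.0% of those of tested genes. In the 9 genes it was found in Tet2, Tet3 and Dnmt3b, where the match was a single GCGTG at position -248 from the start. It was absent from the starts of Tet1 and Dnmt3a, which also rose in WT hypoxia. The change of Dnmt3b in hypoxia did not pass the test in either genotype. Whether the core bears on these levels was not tested. CACGTG, also known as an E-box, was found in 7.63% of all starts and in 9.94% of those of tested genes. It stood at -67 in Tet2 and at -237 and -197 in Tet3. The E2F words were found in 2.66% of all starts, in 3.73% of those of tested genes and, among the 9 genes, in Hells at position 14. These matches are letters in 1 window per gene, at 1 annotated start, and the counts per gene do not tell which start was used.

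In TPM, a level corrected for the summed exon length of the gene, Uhrf1 and Dnmt1, which copy methylation, stood far above the others. Uhrf1 had a median of 331 TPM over the 8 libraries (235 to 422) and Dnmt1 of 231 TPM (133 to 329). These ranges overlapped, and within each library Uhrf1 was above Dnmt1. Hells followed with a median of 57.6 TPM (27.1 to 82.1) and Tet3 with 38.4 TPM (28.6 to 53.5), again with overlapping ranges. Dnmt3a, at 17.6 TPM (16.6 to 23.9), lay above Dnmt3b, at 4.49 TPM (3.39 to 5.95), without overlap. Among the TET genes the order of the medians was Tet3, Tet2 at 6.43 TPM (2.10 to 20.4) and Tet1 at 1.72 TPM (0.958 to 2.65). The ranges of Tet2 and Tet1 overlapped, and within each library Tet2 was above Tet1. Dppa4 ran from 0.18 to 27.8 TPM, the widest range in proportion among the genes that passed the filter, and Dppa2 reached at most 0.932 TPM.

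**Figure D1:**
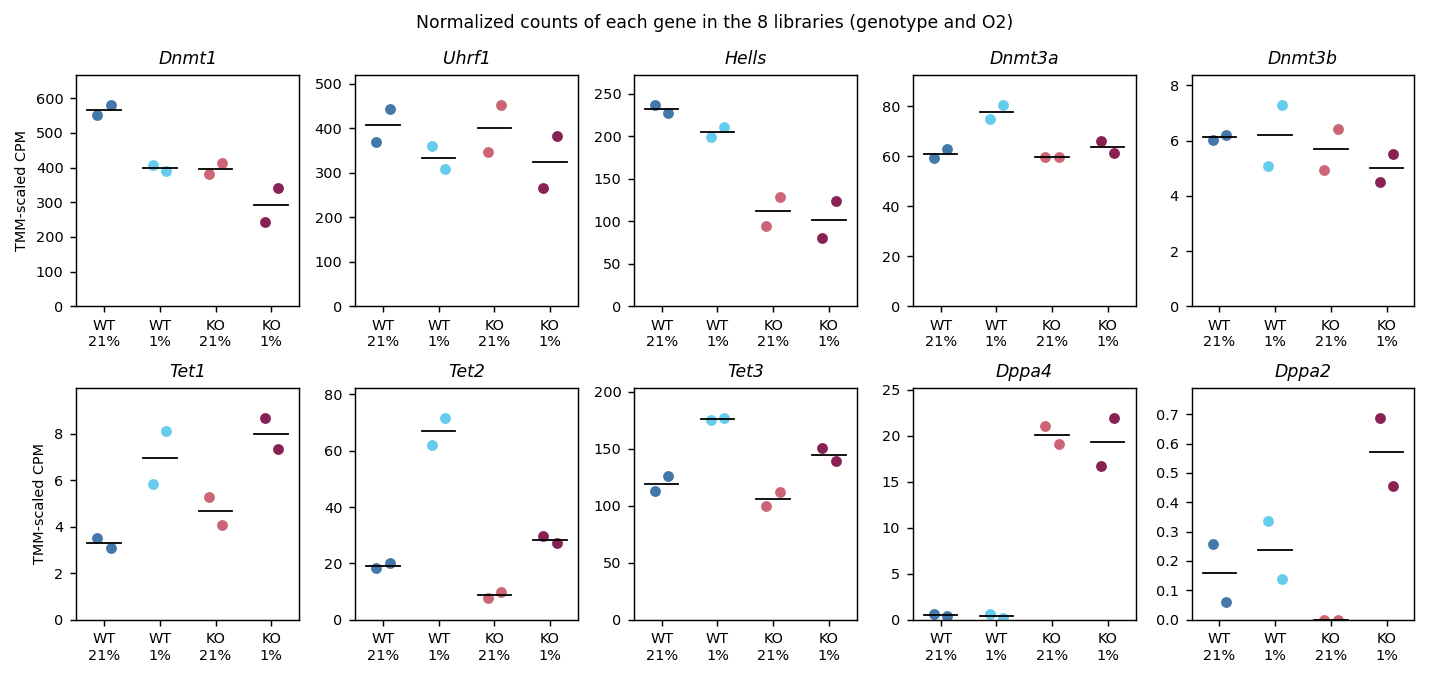
Each panel plots the TMM-scaled CPM of 1 gene (vertical axis from 0) in WT and FIH-KO (KO) cells at 21% and 1% O2, with a point for each library and a line at the group mean of 2 libraries. Tet2 is higher in hypoxia within each genotype and lower in FIH-KO cells within each oxygen condition, Hells is lower in all 4 FIH-KO libraries, and Dppa4 is at 16.7 to 21.9 CPM in FIH-KO cells and at or under 0.643 CPM in WT cells.

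In GRCm39 the remaining genes lie on chromosomes 9 (Dnmt1, 20817945 to 20871184, minus strand), 17 (Uhrf1, 56610275 to 56630489, plus), 12 (Dnmt3a, 3856007 to 3964443, plus), 2 (Dnmt3b, 153490861 to 153529650, plus), 10 (Tet1, 62640349 to 62744775, minus), 6 (Tet3, 83339355 to 83436066, minus) and 16 (Dppa2, 48124105 to 48140618, plus), and those of Hells, Tet2 and Dppa4 are given with their neighbors.

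The response to hypoxia was not used to pick the genes and could be tested. In WT cells 5 of the 9 tested genes passed edgeR's quasi-likelihood test at an adjusted p under 0.05, beside 32.4% of all tested genes. Tet1, Tet2, Tet3 and Dnmt3a rose and Dnmt1 fell, beside 16.9% of all genes that rose and 15.5% that fell. In FIH-KO cells Tet2 and Tet3 rose, 2 of 9 genes, beside 16.8% of all genes called in either direction and 8.84% that rose. In such bulk libraries fewer cells that express a gene and less of its RNA per cell cannot be told apart. The libraries of the 2 oxygen conditions did not overlap for 7 of 9 genes in WT and 5 of 9 in FIH-KO cells, beside 70.8% and 55.2% of all tested genes. Counts this small do not set the 9 genes apart, and their median log2 fold change was 0.00992 in WT and -0.0527 in FIH-KO cells, beside -0.00106 and -0.0267 over all genes.

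Tet2 had the largest response to hypoxia of the 9 genes in both genotypes. It stood at 18.4 and 20.0 CPM in WT normoxia, 62.2 and 71.6 in WT hypoxia, 7.80 and 9.80 in FIH-KO normoxia and 29.6 and 27.1 in FIH-KO hypoxia. None of the 4 groups overlapped, and the order was WT hypoxia, FIH-KO hypoxia, WT normoxia and FIH-KO normoxia. The rise was 3.48-fold in WT cells (log2 fold change 1.80, SE 0.15, edgeR adjusted p = 1.1e-05) and 3.22-fold in FIH-KO cells (1.69, SE 0.16, adjusted p = 4.5e-05). It passed the test in 14 of 14 alternative analyses in each genotype. The rises in the 2 genotypes differed by -0.11 on the log2 scale (SE 0.22, adjusted p = 0.95).

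Tet3, the most abundant TET transcript, rose less. Its levels were 32.3 and 36.3 TPM in WT normoxia, 50.4 and 53.5 in WT hypoxia, 28.6 and 32.8 in FIH-KO normoxia and 42.2 and 40.5 in FIH-KO hypoxia. Hypoxic libraries were above normoxic ones in both genotypes. The increase was 1.47-fold in WT cells (log2 0.56, SE 0.11, edgeR adjusted p = 0.0026) and 1.37-fold in FIH-KO cells (0.45, SE 0.11, adjusted p = 0.016). Without WT normoxia replicate 1 the adjusted p in WT cells was 0.065, and in FIH-KO cells the call was lost without FIH-KO normoxia replicate 1 (adjusted p = 0.096), without FIH-KO hypoxia replicate 1 and with only the libraries of the comparison. Tet3 overlaps annotated genes on both strands, among them Bola3, Tet2 overlaps Gm42567 on the other strand and Dnmt3a the antisense gene Dnmt3aos, and the strand setting of the counting is not given in the sources used here.

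Tet1, the least abundant TET transcript, had 52 to 55 counts in WT normoxia and 104 to 119 in WT hypoxia. It rose 2.10-fold in WT cells (log2 1.07, SE 0.27, edgeR adjusted p = 0.0093). In FIH-KO cells it had 89 and 73 counts in normoxia and 139 and 113 in hypoxia, without overlap, and the log2 fold change of 0.77 (SE 0.25) did not pass the test (adjusted p = 0.056). The WT call was lost without WT hypoxia replicate 2 or WT normoxia replicate 2, where the adjusted p reached 0.097.

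Of the genes that write new methylation, Dnmt3a was at 59.3 and 62.8 CPM in WT normoxia and 74.9 and 80.6 in WT hypoxia. The groups did not overlap, and the rise was 1.27-fold (log2 0.35, SE 0.11, edgeR adjusted p = 0.03). This call was kept in 7 of 14 alternatives and was lost without the filter on low counts and without any 1 library of WT normoxia, WT hypoxia or FIH-KO normoxia, with an adjusted p of up to 0.27. In FIH-KO cells Dnmt3a measured 59.9 and 59.7 CPM in normoxia and 66.3 and 61.2 in hypoxia, a log2 fold change of 0.09 (SE 0.11, adjusted p = 0.62). The difference between the genotypes in this response, -0.26 (SE 0.16), did not pass the test (adjusted p = 0.80). Dnmt3b stayed between 4.50 and 7.30 CPM, its groups overlapped, and its log2 fold change in hypoxia was 0.01 in WT (SE 0.26, adjusted p = 0.98) and -0.18 in FIH-KO cells (SE 0.26, adjusted p = 0.69).

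Dnmt1, the maintenance enzyme, was at 552 and 581 CPM in WT normoxia and 406 and 390 in WT hypoxia. Both hypoxic libraries were lower, and the decrease was 1.42-fold (log2 -0.51, SE 0.15, edgeR adjusted p = 0.019), a call lost without any 1 of the 4 WT libraries (adjusted p of up to 0.11). In FIH-KO cells it was at 382 and 412 CPM in normoxia and 243 and 342 in hypoxia. The log2 fold change of -0.44 (SE 0.15) did not pass the test (adjusted p = 0.057), and it was -0.71 without FIH-KO hypoxia replicate 2 (adjusted p = 0.0017) and -0.19 without replicate 1 (adjusted p = 0.35). Uhrf1 measured 370 and 443 CPM in WT normoxia, 360 and 309 in WT hypoxia, 348 and 453 in FIH-KO normoxia and 265 and 382 in FIH-KO hypoxia. Its replicates lay wide apart, and the log2 fold changes in hypoxia, -0.28 in WT (SE 0.18, adjusted p = 0.25) and -0.31 in FIH-KO cells (SE 0.18, adjusted p = 0.27), did not pass the test.

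**Figure D2:**
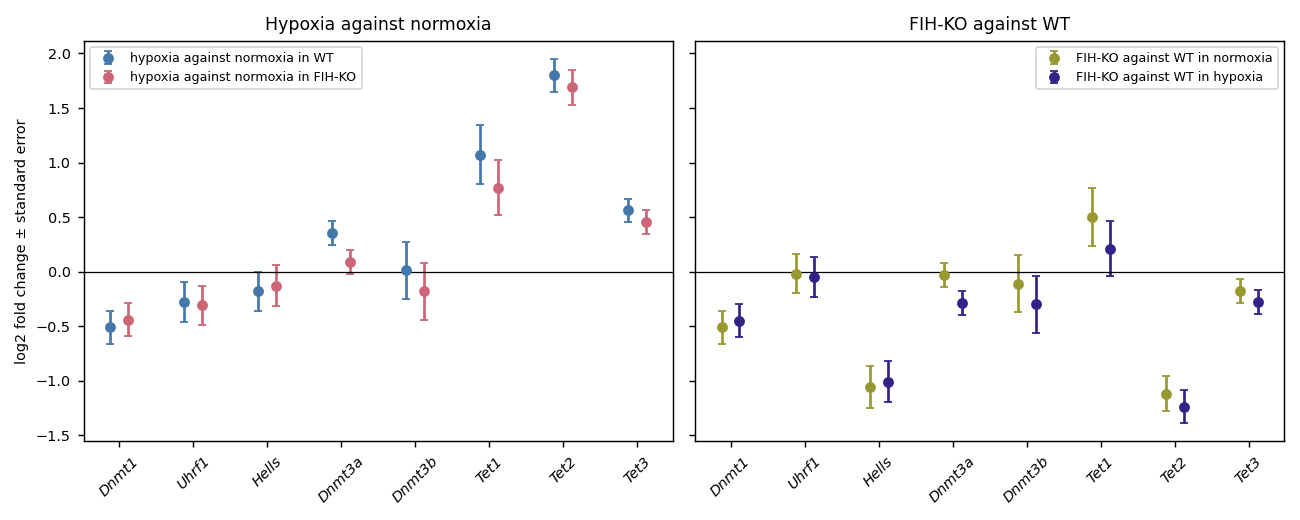
The log2 fold change (points) and its standard error (bars) of 8 genes, with hypoxia against normoxia on the left, in WT and FIH-KO cells, and FIH-KO against WT on the right, in normoxia and hypoxia. In hypoxia Tet2 is at 1.80 and 1.69 and Tet3 at 0.56 and 0.45, while FIH-KO cells have Hells at -1.06 and -1.01 and Tet2 at -1.12 and -1.24. Dppa4 and Dppa2 are left out, the first for scale and the second because it was not tested.

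Between the genotypes the fit over all genes gave 4 of the 9 genes an adjusted p under 0.05 in each oxygen condition, Dppa4 higher and Dnmt1, Tet2 and Hells lower, beside 28.2% of all tested genes called in normoxia, of which 15.2% were above and 13.0% below WT as shares of all, and 28.0% in hypoxia, with 14.1% above and 13.9% below. The genes were picked on this comparison, so these counts are a description and no test of them, and nothing is read from them. The median log2 fold change of the 9 genes was -0.106 in normoxia and -0.286 in hypoxia, beside -0.00251 and -0.0321 over all genes.

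Dppa4 had 10 and 6 counts in WT normoxia, 11 and 2 in WT hypoxia, 353 and 341 in FIH-KO normoxia and 268 and 337 in FIH-KO hypoxia. Every FIH-KO library was above every WT library, and the counts in WT cells were close to the limit of detection. The mean was 20.1 CPM ± 1.37 in FIH-KO and 0.499 ± 0.203 in WT normoxia, and 19.3 ± 3.67 and 0.377 ± 0.339 in hypoxia (SD, n = 2 each). This was a 40.0-fold difference in normoxia (log2 5.32, SE 0.37) and a 47.8-fold difference in hypoxia (5.58, SE 0.38). Across the alternatives the normoxic log2 value spanned 4.92 to 5.76 and the hypoxic one 4.96 to 7.10, the highest without WT hypoxia replicate 1, which leaves 2 counts as the WT level. How reads that match several places were counted is not given in the sources used here. In FIH-KO cells oxygen made no difference that passed the test, with a log2 fold change of -0.05 (SE 0.24, edgeR adjusted p = 0.92). Dppa4 passed the filter on low counts through its level in the FIH-KO libraries. In WT cells, at 2 to 11 counts, the log2 fold change with hypoxia was -0.31 (SE 0.61). Counts this low cannot show whether oxygen changes Dppa4 in WT cells.

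Dppa2, the partner of Dppa4, starts 20.0 kb further along the same strand and did not exceed 11 counts in any library. It had 4 and 1 counts in WT normoxia, 6 and 2 in WT hypoxia, 0 and 0 in FIH-KO normoxia and 11 and 7 in FIH-KO hypoxia. FIH-KO counts were thus lower than WT counts in normoxia and higher in hypoxia, all close to the limit of detection. The 2 libraries at 0 allow up to 3 counts each, or 0.179 and 0.168 CPM, counting error only. FIH-KO hypoxia held the highest counts, at 0.687 and 0.456 CPM, against 16.7 and 21.9 CPM for Dppa4 in the same libraries. No fold change is given for counts at this level.

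On chromosome 16, where Dppa4 spans 48104062 to 48114896, no tested gene near it had a difference of that size. Morc1, a germ line gene that starts 147.5 kb away, and Gm5485, Trat1, Retnlb, Retnla and Retnlg were at 0 in all 8 libraries. Dzip3 was at 705 to 897 counts and Cip2a at 1902 to 3166 counts over the 8 libraries. The nearest tested genes were Gm7204, at a log2 fold change of -0.49 in normoxia (SE 0.39, edgeR adjusted p = 0.39) and 0.58 in hypoxia (SE 0.41, adjusted p = 0.32), and Gm8670, at -0.10 (SE 0.68, adjusted p = 0.93) and -1.16 (SE 0.74, adjusted p = 0.28). The 4 tested genes that start within 1 Mb spanned -0.49 to 0.13 in normoxia, and the same genes spanned -1.16 to 0.58 in hypoxia. Of the 424 other tested genes of the chromosome, 423 were below Dppa4 in each oxygen condition, and the median of the chromosome was 0.227 in normoxia and 0.178 in hypoxia.

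Other genes of early embryos and germ cells were read beside Dppa4. Of 32 germ line genes known to be silenced by promoter methylation, 30 did not exceed 10 counts in any library and 17, among them Dazl and Mael, were at 0 throughout. Their summed level was 2.24 to 3.33 CPM in FIH-KO normoxia and 3.44 to 3.66 in WT normoxia, and 3.19 to 4.75 and 3.36 to 3.96 in hypoxia. The 2 that were tested, Taf7l and Brdt, did not pass between genotypes in either oxygen condition (edgeR adjusted p = 0.83 and 0.50 in normoxia, 0.56 and 0.45 in hypoxia). Of 28 pluripotency and 2-cell stage genes, 18 were at 0 throughout, Pou5f1, Nanog, Sox2, Zfp42 and the measured Zscan4 genes among them. Among the 5 that were tested, Lin28b, which blocks let-7 maturation, was lower in FIH-KO cells, at a log2 fold change of -1.97 in normoxia (SE 0.29, adjusted p = 0.00048) and -1.75 in hypoxia (SE 0.32, adjusted p = 0.0019). Tbx3, a T-box factor, was lower as well, at -1.77 (SE 0.27, adjusted p = 0.00056) and -1.86 (SE 0.28, adjusted p = 0.00061). In normoxia 1 of the 5 rose (Klf4) and 2 fell, and in hypoxia 0 rose and 3 fell (Lin28b, Tbx3 and Klf5). Over all tested genes 28.2% were called in either direction in normoxia and 28.0% in hypoxia.

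Hells was at 237 and 227 CPM in WT normoxia, 199 and 211 in WT hypoxia, 94.1 and 129 in FIH-KO normoxia and 79.8 and 124 in FIH-KO hypoxia. All 4 FIH-KO libraries were below all 4 WT libraries, and in both FIH-KO groups replicate 1 was lower than replicate 2. The difference was 2.08-fold in normoxia (log2 -1.06, SE 0.19) and 2.01-fold in hypoxia (-1.01, SE 0.19). Across the alternatives it lay between -1.33 and -0.87 in normoxia, and in hypoxia it went from -1.36 without FIH-KO hypoxia replicate 2 to -0.69 without replicate 1 in hypoxia. Hypoxia gave -0.18 in WT (SE 0.18, edgeR adjusted p = 0.49) and -0.13 in FIH-KO cells (SE 0.19, adjusted p = 0.69).

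Hells lies on chromosome 19 (38919359 to 38960047), and a lower level was common there. Over 475 other tested genes of the chromosome the median log2 fold change was -0.376 in normoxia and -0.449 in hypoxia, and 50 and 67 of them were below Hells. The 9 other tested genes that start within 1 Mb had a median of -0.547 and -0.612. The nearest on each side were Tbc1d12, at -0.22 in normoxia (SE 0.16, edgeR adjusted p = 0.33) and -0.14 in hypoxia (SE 0.16, adjusted p = 0.54), and the pseudogene Cyp2c52-ps, at -0.75 (SE 0.97, adjusted p = 0.60) and -1.94 (SE 0.61, adjusted p = 0.032). Hif1an itself is on chromosome 19, from 44551286 to 44568723. Tet2 lies on chromosome 3 (133169436 to 133250900), whose 682 other tested genes had a median of -0.356 and -0.404, with 67 and 50 of them below Tet2. For Dnmt1 on chromosome 9 the median of 771 other genes was -0.17 and -0.16. The part of these chromosome-wide values in the levels of Hells, Tet2 and Dnmt1 was not tested.

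**Figure D3:**
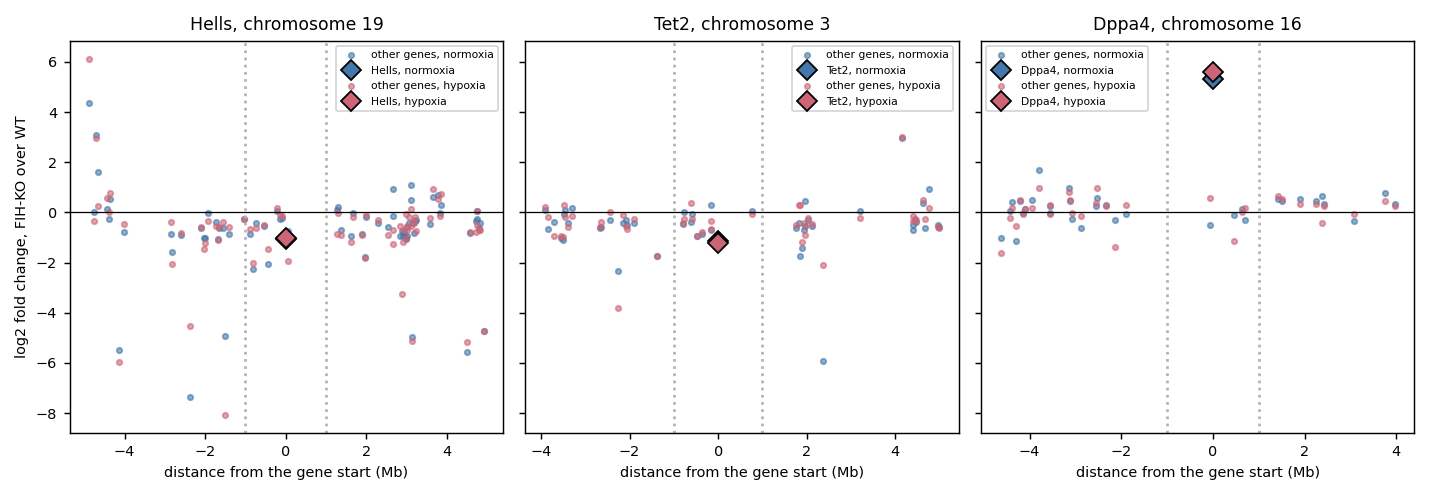
The log2 fold change of FIH-KO over WT cells (vertical axis) of each tested gene against the distance of its start from that of Hells, Tet2 or Dppa4 (horizontal axis, Mb), in normoxia and hypoxia, with diamonds for the named gene and dotted lines at 1 Mb on either side. The genes around Hells and Tet2 lie mostly below 0, with medians within 1 Mb of -0.547 and -0.386 in normoxia, while the 4 genes within 1 Mb of Dppa4 stay at or below 0.58 and Dppa4 is at 5.32 and 5.58.

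Dnmt1 was at 552 and 581 CPM in WT and 382 and 412 CPM in FIH-KO normoxia, and at 406 and 390 in WT and 243 and 342 in FIH-KO hypoxia. The genotypes did not overlap in either oxygen condition. The log2 fold change was -0.51 in normoxia (SE 0.15) and -0.45 in hypoxia (SE 0.15), and in hypoxia it was -0.18 without FIH-KO hypoxia replicate 1. Uhrf1 overlapped between genotypes, at -0.02 (SE 0.18) and -0.05 (SE 0.18). Across the alternatives Uhrf1 spanned -0.25 to 0.13 in normoxia, and its hypoxic value spanned -0.33 to 0.23, the ends set by which FIH-KO replicate was left out.

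Tet2 was 2.18-fold lower in FIH-KO normoxia (log2 -1.12, SE 0.16) and 2.36-fold lower in hypoxia (-1.24, SE 0.15), without overlap. Hypoxia raised Tet2 in FIH-KO cells to 28.4 CPM ± 1.74 (SD, n = 2), above the 19.2 ± 1.07 of WT normoxia and below the 66.9 ± 6.65 of WT hypoxia. Tet3 was slightly lower in FIH-KO cells, at -0.18 (SE 0.11) and -0.28 (SE 0.11), without overlap. The 680 other tested genes of its chromosome 6 had a median of -0.124 and -0.131, and 302 and 264 of them were below Tet3. Tet1 was higher in FIH-KO normoxia without overlap (0.50, SE 0.27) and overlapped in hypoxia (0.21, SE 0.25). Dnmt3a overlapped in normoxia (-0.03, SE 0.11) and was lower in hypoxia (-0.29, SE 0.11), and Dnmt3b overlapped in both, at -0.11 and -0.30 (SE 0.26 each). Of the 9 genes, 6 did not overlap between genotypes in each oxygen condition, beside 69.4% of all tested genes in normoxia and 61.7% in hypoxia.

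The effect of FIH loss did not differ between normoxia and hypoxia for any of the 9 genes in a way that passed the test. The smallest unadjusted p was 0.13, for Dnmt3a, and all adjusted p were 0.80 or above with edgeR. For Dppa4 this test rests on WT counts close to the limit of detection and can show little. At an unadjusted p under 0.05 the count was 0 of 9 with edgeR and 0 of 9 with DESeq2. Over all genes edgeR called 0 (0.0%), with 925 at an unadjusted p under 0.05, and DESeq2 called 40.

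Dnmt1, Uhrf1 and Hells act at replicating DNA, and 38 genes of S phase and the replication fork were read beside them. In FIH-KO cells 1 of the 38 rose (E2f1) and 10 fell in normoxia, and 0 rose and 12 fell in hypoxia, beside 13.0% and 13.9% of all tested genes that fell, with medians of -0.32 and -0.215. Mcm2, a subunit of the replicative helicase, fell by 0.70 on the log2 scale in normoxia (SE 0.12, edgeR adjusted p = 0.0015) and by 0.75 in hypoxia (SE 0.12, adjusted p = 0.0011). Fen1, the flap endonuclease, was at -0.73 (SE 0.16, adjusted p = 0.0058) and -0.57 (SE 0.16, adjusted p = 0.023), and Mcm3 and Gins3 fell too, by 0.63 and 0.66 in normoxia and by 0.58 and 0.74 in hypoxia (adjusted p of 0.0055, 0.043, 0.0084 and 0.027 in that order). Hypoxia lowered 22 of the 38 in WT cells (median -0.538) and 17 in FIH-KO cells (median -0.509) and raised 0, beside 15.5% and 8.0% of all tested genes that fell. Hells, at -0.18 and -0.13, stayed above these medians in hypoxia. Between genotypes, at -1.06 and -1.01, it was below the medians of the 38 genes. That position is a description only, because the genes were picked on the lower level of Hells in FIH-KO cells. The tested genes within 1 Mb of Hells had medians of -0.547 and -0.612 between genotypes.

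The summed level of the 38 genes also differed between replicates. It was 3682 CPM in FIH-KO hypoxia replicate 1 and 5576 CPM in replicate 2, with 35 of the 38 genes lower in replicate 1, and 5725 and 6518 CPM in FIH-KO normoxia, with 36 of 38 lower in replicate 1. The WT libraries held 7356 and 7676 CPM in normoxia and 5219 and 5250 CPM in hypoxia. In WT cells 28 of the 38 genes were lower in replicate 1 in normoxia and 16 of 38 in hypoxia. Hells, Dnmt1 and Uhrf1 were also lower in replicate 1 of both FIH-KO groups, and the part of this difference between replicates in their values was not tested. The count of S phase genes called between genotypes was 2 without FIH-KO normoxia replicate 1 and 18 without FIH-KO hypoxia replicate 1 in normoxia, and 21 without FIH-KO hypoxia replicate 2 and 3 without WT hypoxia replicate 1 in hypoxia. The count that fell or rose in hypoxia was 8 without WT hypoxia replicate 2 in WT cells, and in FIH-KO cells 2 without FIH-KO normoxia replicate 2 and 32 without FIH-KO hypoxia replicate 2. Without FIH-KO hypoxia replicate 1 the hypoxia values of Fen1, Mcm3 and Gins3 were -0.30, -0.36 and -0.37 and did not pass the test, and Mcm2 passed it in both conditions in 14 of 14 alternatives.

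**Figure D4:**
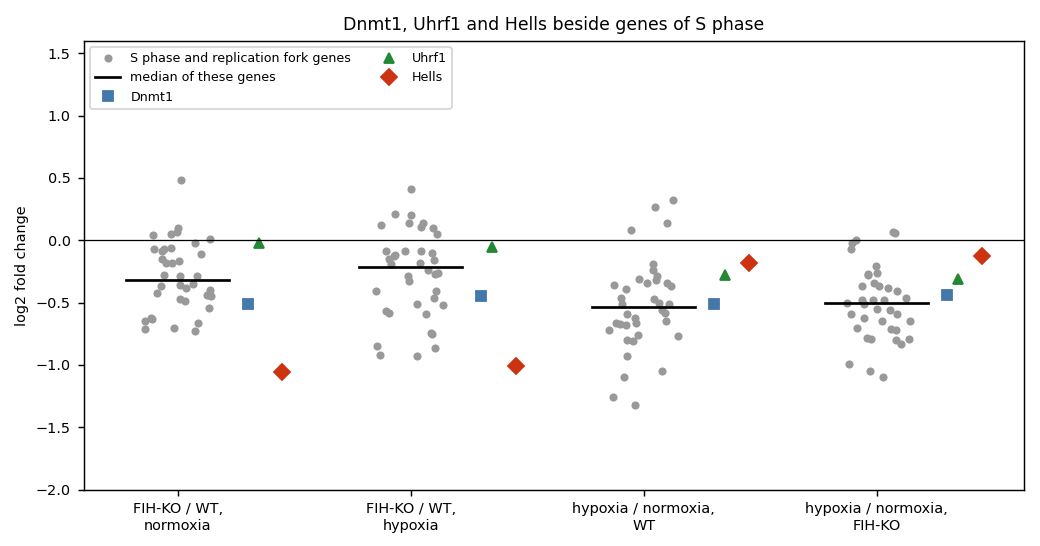
The log2 fold change (vertical axis) of 38 S phase and replication fork genes (grey points, with a bar at their median) in 4 comparisons, beside Dnmt1, Uhrf1 and Hells. Between genotypes Hells lies at -1.06 and -1.01 against medians of -0.32 and -0.215, a description only, because the genes were picked on its lower level in FIH-KO cells. In hypoxia it lies at -0.18 and -0.13 against medians of -0.538 and -0.509.

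The relatives of these genes were read in the same fit, and 5 of 9 were tested. Uhrf2, a paralog of Uhrf1 on chromosome 19, was lower in FIH-KO cells, at -0.75 in normoxia (SE 0.11, edgeR adjusted p = 0.0005) and -1.26 in hypoxia (SE 0.11, adjusted p = 1.7e-05), and rose in hypoxia by 1.16 in WT (SE 0.11, adjusted p = 2.4e-05) and 0.65 in FIH-KO cells (SE 0.11, adjusted p = 0.0023). Dnmt3l, the cofactor of the new-methylation enzymes, had 32 to 39 counts in WT normoxia and 96 to 185 in WT hypoxia. It rose in hypoxia by 1.95 in WT (SE 0.36, adjusted p = 0.0017) and 1.91 in FIH-KO cells (SE 0.34, adjusted p = 0.0028), and its genotype values of 0.50 and 0.46 did not pass (adjusted p = 0.36 and 0.30). Trdmt1, which methylates transfer RNA, was lower in FIH-KO normoxia (-1.01, SE 0.27, adjusted p = 0.017), a call lost without FIH-KO normoxia replicate 1 or WT normoxia replicate 1, and its value in hypoxia was -0.12 (SE 0.29, adjusted p = 0.80). Cdca7, which activates HELLS, was at -0.23 (SE 0.13, adjusted p = 0.23) and -0.31 (SE 0.14, adjusted p = 0.11), and its paralog Cdca7l at -0.07 (SE 0.12, adjusted p = 0.70) and -0.19 (SE 0.12, adjusted p = 0.27). Dnmt3c held at most 2 counts, Dppa3 at most 1, and Dppa1 and Dppa5a were at 0 in all libraries.

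Genes that read methylation or work with these enzymes moved in both directions. Of 25, 1 rose and 3 fell in FIH-KO normoxia and 2 rose (Zbtb4 and Cxxc5) and 3 fell in hypoxia, with medians of 0.031 and 0.0666. Over all tested genes 15.2% rose and 13.0% fell in normoxia, and 14.1% rose and 13.9% fell in hypoxia. Zfp57, a zinc finger protein that protects methylation at imprinted regions, fell by 2.41 (SE 0.25, edgeR adjusted p = 4.7e-05) and by 3.05 (SE 0.24, adjusted p = 8.8e-06). Setdb1, the H3K9 methyltransferase it works with, fell by 0.63 (SE 0.10, adjusted p = 0.0011) and by 0.73 (SE 0.10, adjusted p = 0.00046). Kdm2b, which binds unmethylated CpGs, was also lower, at -0.37 (SE 0.12, adjusted p = 0.035) and -0.43 (SE 0.12, adjusted p = 0.018), calls lost in 7 and 8 of 14 alternatives, and Zbtb4, which binds methylated CpGs, was higher, at 0.88 (SE 0.13, adjusted p = 0.00047) and 0.56 (SE 0.12, adjusted p = 0.0057). In hypoxia of WT cells 6 of the 25 rose and 1 fell, Zfp57 (1.01, SE 0.21, adjusted p = 0.0036) and Setdb1 (0.36, SE 0.10, adjusted p = 0.021) among those that rose. Of all tested genes 16.9% rose and 15.5% fell in this comparison. The count called between genotypes in hypoxia was 3 without WT hypoxia replicate 1 or 2 or FIH-KO hypoxia replicate 1.

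Of 18 genes for the removal of 5-methylcytosine and its products, 16 were tested, of which 1 rose and 3 fell in FIH-KO normoxia and 1 rose and 2 fell in hypoxia (Parp1 and Ung). The share of all tested genes called in either direction was 28.2% in normoxia and 28.0% in hypoxia. Tdg, the glycosylase that cuts out the oxidation products made by TET enzymes, fell by 0.65 in normoxia (edgeR adjusted p = 0.0041), where Apex1, which acts after it, fell by 0.31 (adjusted p = 0.044). Parp1, which acts in base excision repair, fell by 0.73 (SE 0.11, edgeR adjusted p = 0.00072) and by 0.66 (SE 0.11, adjusted p = 0.0014), and Apobec3, a cytidine deaminase, rose by 0.62 (SE 0.16, adjusted p = 0.012) and 0.68 (SE 0.16, adjusted p = 0.008). Without FIH-KO normoxia replicate 1 or WT normoxia replicate 1 the call of Apobec3 in normoxia was lost and 2 genes of this list were called, and in hypoxia 1 was called without WT hypoxia replicate 1, where Apobec3 was lost too, and 5 without FIH-KO hypoxia replicate 1. Of 24 genes that supply the methyl donor or 2-oxoglutarate, 22 were tested. In FIH-KO normoxia 2 rose and 11 fell, and in hypoxia 3 rose and 11 fell, with medians of -0.367 and -0.374. Beside these, 15.2% of all tested genes rose and 13.0% fell in normoxia, and 14.1% and 13.9% in hypoxia. Idh1, which makes 2-oxoglutarate in the cytosol, rose by 1.13 (SE 0.25, adjusted p = 0.0054) and 1.30 (SE 0.25, adjusted p = 0.0027), whereas Idh3a, a subunit of the mitochondrial NAD-dependent enzyme, fell by 0.86 (SE 0.12, adjusted p = 0.00039) and by 0.77 (SE 0.12, adjusted p = 0.00093). Shmt1 and Mthfd2, enzymes of folate metabolism, fell by 0.81 and 0.74 in normoxia and by 0.86 and 0.77 in hypoxia (adjusted p = 0.0022, 0.0014, 0.0017 and 0.0011). Without FIH-KO normoxia replicate 1, 3 genes of this list were called in normoxia and Idh1 was at 0.54 and not called. Without WT normoxia replicate 1 or 2 the count in normoxia was 4 or 7, and without WT hypoxia replicate 2 the count in hypoxia was 6.

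The genes whose log2 CPM followed that of Dppa4 most closely over the 8 libraries, among all tested genes, were Lrch2 (Pearson r = 0.9964), Casz1 (0.9961), Pid1 (0.9958), Mrtfb (0.9949) and Ky (0.9922). Those most like Hells were Lrba (0.9953), Nsd2 (0.9932), Smc3 (0.9921), Atxn1l (0.9918) and Hnrnpa1 (0.9912). Nsd2 is an H3K36 methyltransferase and Smc3 a cohesin subunit. The 8 libraries fall into 2 genotypes, and these correlations describe that shared pattern and carry no test. Hells and Dppa4 stood at r = -0.902 with each other, Hells and Dnmt1 at 0.817 and Hells and Uhrf1 at 0.399.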

How the data were processed

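RNA-Seq was carried out on WT and FIH-KO LLC cells in 4 groups of 2 libraries. Libraries of mRNA that kept the strand were sequenced from both ends, and the authors demultiplexed with bcl2fastq, aligned to GRCm39 with STAR and used HTSeq to count. The deposited table holds raw counts, whole numbers with no normalization. The submitters' processing notes also name DESeq2 and the builds GRCm38, mm10 and mm39. The annotation release, the strand setting and the handling of reads with several matches are not given in the sources used here.

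Groups were taken from the titles and descriptions of the samples, which differ from the design text of the series on the FIH-KO hypoxia group. The analysis used edgeR 4.0.16 under R 4.3.3, with filterByExpr on the groups, TMM, 1 quasi-likelihood fit of group means over all 8 libraries (glmQLFit, glmQLFTest) and Benjamini-Hochberg adjustment over all 13933 tested genes, with a threshold of 0.05. The common coefficient of biological variation came to 11.7%. There were 5 comparisons: FIH-KO against WT in each oxygen condition, hypoxia against normoxia in each genotype, and the difference between oxygen conditions in the FIH-KO effect. The fit was first tested on simulated counts. TPM was computed from the counts and the summed exon length per gene. Positions came from the GENCODE annotation of GRCm39, in which 52610 identifiers (97.97%) were found, and sequences from the GRCm39 genome with pysam 0.24.0. Motifs were searched in 300 bases around the start of the canonical transcript, for 9 of the 10 genes, and 1 start is not reported here.

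The genes and the lists were chosen with earlier results of these data known. Named genes were Hif1an, the 10 genes, their relatives with any read, in each list up to 4 genes with an adjusted p under 0.05 and 1 direction in both genotype comparisons and a mean of at least 50 counts, the nearest tested gene on each side of Dppa4 and Hells, and the 5 genes most correlated with each of these in log2 CPM (prior count 2). Klf4, Klf5, E2f1, Cxxc5, Tdg, Apex1, Ung, Taf7l, Brdt and the genes named at 0 or by their counts alone were named after their values were seen. The lists were relatives, readers and co-regulators, removal of 5-methylcytosine, methyl donor and 2-oxoglutarate supply, germ line genes, pluripotency and 2-cell stage genes, S phase genes, and markers of epithelium and of other cell types. Tyms and Ung each stand in 2 of the lists.

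Alternatives were the DESeq2 1.42.0 Wald test, RLE size factors, no filter beyond 1 read, a minimum of 10 counts per library, a fit of the comparison's own libraries alone, the replicate number as a block, and each library left out in turn. The length of the canonical transcript for TPM was added after seeing the data.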

Additional observations from a re-analysis of the deposited data

How the results depend on the processing

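With 2 libraries per group the test rests on the spread shared between groups, and where a library was left out the lone one was assumed to vary like the others and 14538 to 14668 genes passed the filter in place of 13933. Tet2 kept its rise in hypoxia under all 14 alternatives in both genotypes, and so did the genotype calls of Hif1an, Uhrf2, Zfp57, Setdb1, Zbtb4, Parp1, Idh3a, Shmt1, Mthfd2, Mcm2, Lin28b and Tbx3. The number of the 9 genes called ranged, over the analyses that left out 1 library, from 2 to 5 for hypoxia in WT cells (main 5) and from 1 to 4 for hypoxia in FIH-KO cells (main 2). For hypoxia in FIH-KO cells it was 4 without the filter on low counts and 1 with only that comparison's libraries. In FIH-KO against WT cells in normoxia, fitting only the libraries of the comparison gave 7 readers and 17 S phase genes (main 4 and 11), no filter gave 17 S phase and 5 pluripotency genes (main 11 and 3), and DESeq2 gave 5 pluripotency genes. Only the libraries of the comparison gave 8 methyl donor genes (main 14) and 6 S phase genes (main 12) for genotype in hypoxia, and 7 S phase genes (main 17) for hypoxia in FIH-KO cells. Leaving out 1 library gave ranges, in normoxia and then in hypoxia between genotypes, of 2 to 18 and 3 to 21 S phase genes, 3 to 15 and 6 to 13 methyl donor genes, and 2 to 5 and 1 to 5 genes for the removal of 5-methylcytosine. It gave 1 to 3 relatives in normoxia and 3 to 6 readers in hypoxia, and for the response to hypoxia 8 to 31 S phase genes in WT and 2 to 32 in FIH-KO cells. The cause was not tested.

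Log2 fold changes that did not pass the test also turned direction when 1 library was left out. In hypoxia against normoxia Dnmt3b ran from -0.27 to 0.22 in WT and from -0.35 to 0.04 in FIH-KO cells, Hells from -0.49 to 0.18 in FIH-KO cells, Dppa4 from -1.83 to 0.31 in WT and from -0.26 to 0.16 in FIH-KO cells, Hif1an from -0.03 to 0.11 in WT cells and Trdmt1 from -0.66 to 0.22 in FIH-KO cells. Without the filter Dnmt3b was at -0.01 in WT cells. The difference between oxygen conditions in the FIH-KO effect ran from -0.20 to 0.36 for Dnmt1, -0.38 to 0.08 for Dnmt3b, -0.21 to 0.12 for Tet2, -0.12 to 0.04 for Tet3, -0.31 to 0.28 for Uhrf1, -0.30 to 0.40 for Hells and -0.36 to 1.80 for Dppa4, and Uhrf1 was at 0.0035 with at least 10 counts in every library. Between genotypes Trdmt1 ran from -0.59 to 0.29 in hypoxia, Cyp2c52-ps from -2.03 to 1.16 and Gm8670 from -1.46 to 0.53 in normoxia. With the canonical transcript length the mean TPM changed from 336 to 264 for Uhrf1, from 39.6 to 60.3 for Tet3 and from 1.80 to 1.08 for Tet1, and the order of the means stayed the same.

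Samples with the same replicate number deviated from their group means with correlations of -0.0104 to 0.193 over the 6 pairs of groups, and the numbers were not taken to pair the samples. With the replicate block edgeR called 4080 genes between genotypes in normoxia (main 3933), 4039 in hypoxia (3896), 4593 for hypoxia in WT (4509), 2479 for hypoxia in FIH-KO cells (2345) and 5 for the difference between oxygen conditions (0). Of the 9 genes it called 4, 4, 5, 3 and 0, and Dnmt3b in WT hypoxia was at -0.0025 with the block. Over all genes the calls for hypoxia in FIH-KO cells numbered 1289 with only its libraries (808 higher and 481 lower, beside 1231 and 1114), and leaving out 1 library gave 1735 to 4672 and 2170 to 3887 calls between genotypes in normoxia and hypoxia, and 2124 to 5270 and 1097 to 2604 calls for hypoxia in WT and FIH-KO cells. The difference between oxygen conditions had 143 calls without the filter, 40 with DESeq2 and 0 to 39 when 1 library was left out.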
